A study of Mus musculus with 6 samples.

Results

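The 7 genes described here were grouped under the transport and sensing of short-chain fatty acids. They are the transporters Slc5a8, Slc16a1 and Slc16a3, the transporter partner Bsg, and the receptors Ffar2, Ffar3 and Hcar2. They were taken by gene name from a deposited table of 54532 genes, in which all 7 had 1 row each. The samples were 3 colon RNA libraries of IL10-/- mice (IL10-KO) and 3 of wild type mice (WT), all C57BL/6 and aged 56 days, with no treatment given in the labels. Colons were flash frozen and RNA was taken with Trizol, per the labels' protocols. The labels do not say which part of the gene was deleted, whether each library is from a mouse of its own, or which length of colon was taken. P-values thus measure the spread between these libraries, which may be technical. Values are FPKM, fragments that the authors scaled by gene length and library size, so levels of different genes can be set side by side.

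Bacteria in the colon ferment fibre to acetate, propionate and butyrate, and butyrate is the main fuel of the colonocytes that line the gut. Butyrate enters these cells through a sodium-coupled carrier (Slc5a8, SMCT1) and a proton-coupled one (Slc16a1, MCT1), while a related carrier (Slc16a3, MCT4) is best known for exporting lactate from cells with active glycolysis. Slc16a1 and Slc16a3 reach the cell surface in complex with basigin (Bsg, CD147). Ffar2 (GPR43) and Ffar3 (GPR41) are G protein-coupled receptors for short-chain fatty acids, and Hcar2 (GPR109A) is a receptor for niacin, beta-hydroxybutyrate and butyrate. Ffar2 and Hcar2 are known from neutrophils and other myeloid cells as well as from gut epithelium and fat, and Ffar3 from enteroendocrine cells and peripheral neurons.

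Whole reads recovered from the FPKM steps totalled 14235679 to 14651559 in the IL10-KO libraries and 13107941 to 15797928 in the WT libraries. Il10 itself was at 13.8, 10.6 and 14.5 FPKM in IL10-KO libraries 1 to 3, against 0.757, 0.173 and 0.177 FPKM in WT libraries 1 to 3. Its RNA was thus not lost from the libraries labelled IL10-KO, and since the deleted part is not given, the value does not check the labels. The WT libraries stood apart from each other. The geometric mean of 12 epithelial identity genes was 626, 603 and 480 FPKM in IL10-KO libraries 1 to 3 and 300, 683 and 161 FPKM in WT libraries 1 to 3. Epithelial markers were thus high in all 6 libraries, and lowest in WT library 3. The summed level of 10 smooth muscle genes was 210 to 1274 FPKM in IL10-KO and 1621 to 10880 FPKM in WT libraries, highest in WT library 3. Mitochondrial transcripts took 8.61% to 21.96% of reads in IL10-KO libraries and 11.7% to 43.4% in WT libraries, again highest in WT library 3. In bulk tissue, fewer cells of a type and less RNA per cell cannot be told apart.

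Bsg had the highest level of the 7 genes in every library, and each receptor was below Slc5a8 in every library. Mean levels in IL10-KO colon were 358 ± 67.5 FPKM for Bsg, 33.6 ± 12.5 for Slc5a8, 31.2 ± 7.34 for Slc16a1 and 16.5 ± 8.81 for Slc16a3 (SD, n = 3). The receptors averaged 3.12 ± 1.05 FPKM for Hcar2, 2.08 ± 0.506 for Ffar2 and 0.379 ± 0.451 for Ffar3 in the same libraries (SD, n = 3). In WT colon the transport genes averaged 420 ± 395 FPKM for Bsg, 123 ± 166 for Slc16a1, 22.5 ± 18.2 for Slc5a8 and 1.60 ± 0.442 for Slc16a3 (SD, n = 3). Ffar2, Ffar3 and Hcar2 averaged 1.59 ± 1.42, 1.14 ± 0.535 and 0.472 ± 0.439 FPKM in WT colon (SD, n = 3). Slc16a3 had rank 4 among the 7 genes in each IL10-KO library and ranks 5, 4 and 6 in WT libraries 1 to 3. Slc5a8 and Slc16a1 stood next to each other in IL10-KO colon with a gap smaller than their spread, and so did Ffar2 and Ffar3 in WT colon.

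**Figure D1:**
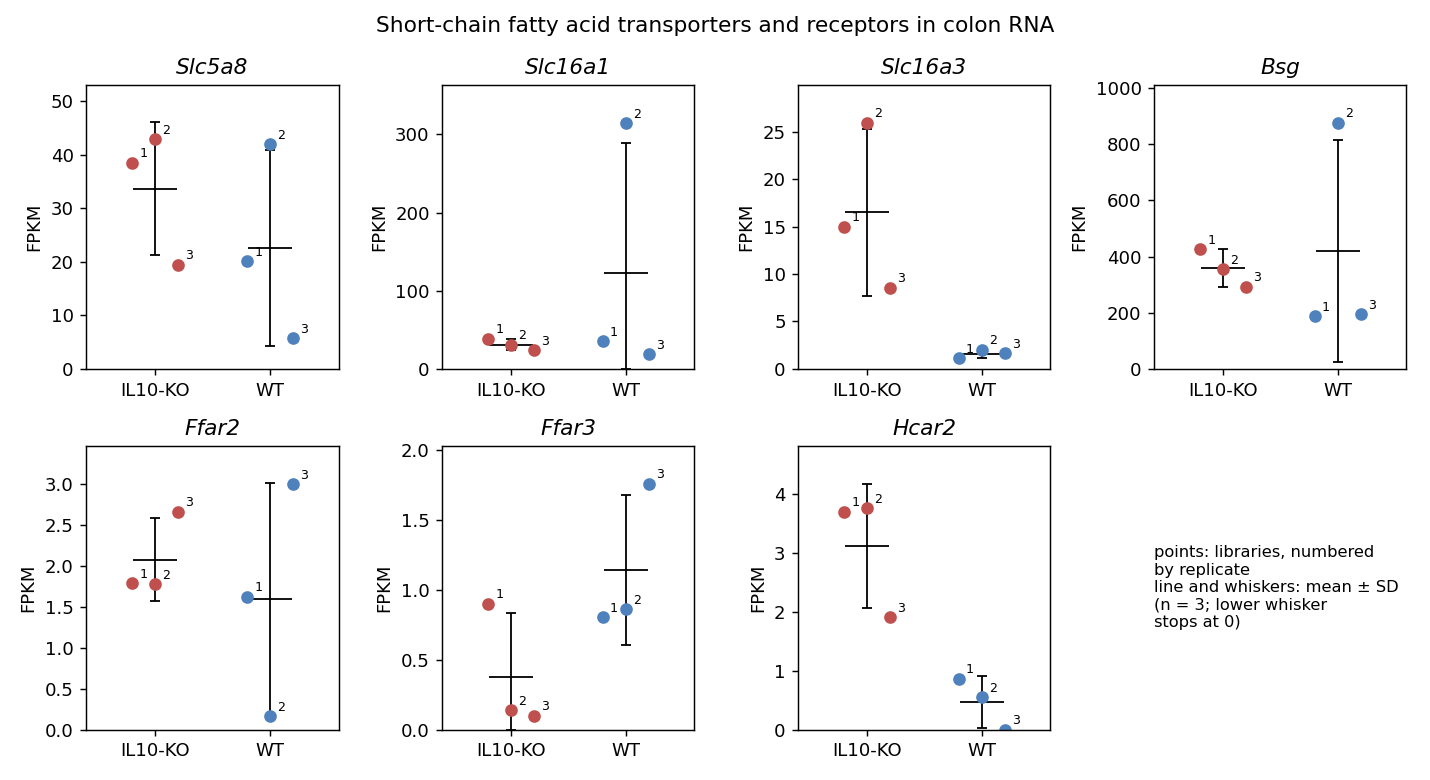
FPKM of the 7 genes (vertical axes, each from 0) in the IL10-KO and WT libraries, with points for libraries numbered by replicate and a line with whiskers for mean ± SD (n = 3). Slc16a3 and Hcar2 lie higher in every IL10-KO library than in any WT library, while Slc16a1 and Bsg have 1 high point, WT library 2.

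Of the 6 genes that could be tested, Slc16a3 and Hcar2 had higher values in every IL10-KO library than in any WT library, and the groups overlapped for the other 4. Over all 12668 genes tested, 8.84% had IL10-KO values wholly above WT values. No member was called at an adjusted p under 0.05 (limma on log2(FPKM + 1), Benjamini-Hochberg over all genes tested). In that fit 0.182% of all genes were called higher and 0% lower. At an unadjusted p under 0.05, 2 members were higher, against 6.14% of all genes tested, and 0 were lower, against 4.03%. The voom fit on the recovered reads called 0 members too. An exact two-sided permutation test of 3 against 3 libraries cannot go below p = 0.1 here. Ffar3 was not tested because its mean of 0.760 FPKM over the 6 libraries was under the minimum of 1, though it averaged 1.14 FPKM in WT. Hcar2 averaged 0.472 FPKM in WT and 3.12 FPKM in IL10-KO, so it passed this minimum through the IL10-KO libraries. Its place in the counts of higher members is therefore not independent of the filter.

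Slc16a3, the lactate exporter, had the largest log2 fold change of the 6 tested members on the log2(FPKM + 1) scale, while Hcar2 had a larger one than Slc16a3 with a pseudocount of 0.01 (4.14 against 3.25) and with voom (3.71 against 3.28). Slc16a3 (ENSMUSG00000025161, GRCm38 chromosome 11, 120948480 to 120960868, plus strand) had values of 15.0, 26.0 and 8.57 FPKM in IL10-KO libraries 1 to 3, against 1.14, 2.02 and 1.64 FPKM in WT libraries 1 to 3. The lowest IL10-KO library was still above the highest WT library, and IL10-KO library 2 was the highest of all. These values rested on 3923 reads in IL10-KO and 353 reads in WT libraries, and the ratio of mean FPKM was 10.3. Its log2 fold change, IL10-KO minus WT on the log2(FPKM + 1) scale, was 2.64 (SE 0.39, 95% interval 1.71 to 3.57). That gave an unadjusted p of 0.000297, which ranked 50 among the 12668 genes, and an adjusted p of 0.0752 in limma, over the threshold of 0.05. The exact permutation p was 0.1, the smallest possible. Its adjusted p ran from 0.0219 to 0.251 across the alternatives, and it was under 0.05 in 2 of them, values rescaled to TPM (0.026) and a weight per library (0.0219).

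The promoters of a pair of carriers are shown because Slc16a3 and Slc16a1, close relatives in 1 carrier family, differed in whether the groups overlapped. Slc16a3 is known as a gene that hypoxia-inducible factor HIF-1 activates, through elements that hold the core letters ACGTG or GCGTG. Capitals mark each match to ACGTG or GCGTG on either strand in 300 bases (250 before to 50 after the start) from RefSeq's GRCm38.p6 annotation, at chr11:120948817-120949116 for Slc16a3 and chr3:104638414-104638713 for Slc16a1, both on the plus strand.
Slc16a3: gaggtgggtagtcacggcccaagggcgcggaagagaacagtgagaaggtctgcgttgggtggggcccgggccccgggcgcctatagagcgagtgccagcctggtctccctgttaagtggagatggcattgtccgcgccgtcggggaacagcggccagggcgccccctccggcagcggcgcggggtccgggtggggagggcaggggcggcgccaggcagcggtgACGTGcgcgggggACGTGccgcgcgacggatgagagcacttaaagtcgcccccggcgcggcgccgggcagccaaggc
Slc16a1: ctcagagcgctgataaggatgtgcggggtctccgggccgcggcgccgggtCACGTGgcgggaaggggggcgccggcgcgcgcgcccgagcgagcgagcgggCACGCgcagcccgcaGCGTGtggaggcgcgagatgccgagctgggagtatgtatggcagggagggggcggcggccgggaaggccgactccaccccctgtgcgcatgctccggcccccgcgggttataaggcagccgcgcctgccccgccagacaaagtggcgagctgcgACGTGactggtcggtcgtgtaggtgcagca
The Slc16a3 window held 2 matches, both ACGTG as printed, that begin at positions -27 and -14 from the start used for that window. The GENCODE M21 annotation lists Slc16a3 starts inside it (120949053 to 120949081) and others outside. Among those outside is the first, at 120948480, for which no window was searched. The Slc16a1 window held 5, of which the first pair overlap in a palindrome and so mark a single site read on both strands. By comparison, 43.8% of 32851 promoter windows held at least 1 match, 20.6% at least 2 and 1.66% at least 5. Each core holds a CpG, and the windows shown are rich in CpG, with 36 in Slc16a3 and 42 in Slc16a1, against an upper quartile of 20 over all windows. Slc5a8 had 1 match, the Ffar3 window 0, and Ffar2 had 3 in 1 of its 4 windows. Of the Ffar2 matches, the pair at -102 and -101 also overlap in a palindrome and mark a single site. Windows for 5 of the 7 members were found, and Bsg and Hcar2 were not among them. A match is a description of the letters and says nothing about binding.

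Slc16a1, the main proton-coupled butyrate carrier, was dominated by a single library. Slc16a1 (ENSMUSG00000032902, GRCm38 chromosome 3, 104638668 to 104658462, plus strand) had values of 38.6, 30.9 and 23.9 FPKM in IL10-KO libraries 1 to 3, against 35.2, 314 and 19.0 FPKM in WT libraries 1 to 3. WT library 2 alone was far above the other 5, whose values overlapped. The log2 fold change was -0.95 (SE 0.97, 95% interval -3.25 to 1.35, adjusted p = 0.791 in limma), and without WT library 2 it was 0.23. The exact permutation p was 0.8. Neither a difference nor its absence can be read from these libraries.

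Bsg, the partner that both Slc16 carriers need at the surface, had the same high library. Bsg (ENSMUSG00000023175, GRCm38 chromosome 10, 79704491 to 79711969, plus strand) had values of 427, 355 and 292 FPKM in IL10-KO libraries 1 to 3, against 189, 877 and 196 FPKM in WT libraries 1 to 3. WT library 2 was again the highest, and WT libraries 1 and 3 were below all IL10-KO libraries. Its log2 fold change of 0.15 (SE 0.64, 95% interval -1.38 to 1.68, adjusted p = 0.961 in limma) turned to -0.17 with quantile normalization and to -0.05 with libraries set to the same non-mitochondrial total. It was 0.88 without WT library 2 (adjusted p = 0.172, in a range over all alternatives of 0.172 to 1.00). Bsg was also -0.23 without WT library 1 and -0.20 without WT library 3, so the data give no direction for it.

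Slc5a8, the sodium-coupled carrier and a gene known to be silenced in colon tumours, was low where epithelial genes were low, in WT library 3. Slc5a8 (ENSMUSG00000020062, GRCm38 chromosome 10, 88885992 to 88929515, plus strand) had values of 38.5, 42.9 and 19.5 FPKM in IL10-KO libraries 1 to 3, against 20.0, 41.9 and 5.70 FPKM in WT libraries 1 to 3. The groups overlapped, with WT library 2 near the top and WT library 3 the lowest. The log2 fold change was 0.85 (SE 0.69, 95% interval -0.79 to 2.49, adjusted p = 0.727 in limma), 0.13 without WT library 3 and 1.47 without WT library 2.

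To set the transporters against the epithelial content of each library, each FPKM was divided by the geometric mean of the 12 epithelial identity genes, among them Epcam, Cdh1, Krt8 and Vil1. This ratio was chosen after the levels were seen. For Slc5a8 it was 0.0615, 0.0712 and 0.0406 in IL10-KO libraries 1 to 3 and 0.0669, 0.0613 and 0.0354 in WT libraries 1 to 3, and these ranges overlapped in part, with IL10-KO library 2 the highest and WT library 3 the lowest. For Slc16a3 it was 0.0179 to 0.0431 in IL10-KO and 0.00296 to 0.0102 in WT libraries, with no overlap. Over all genes tested, 1.59% stood wholly higher in IL10-KO on this scale. For Slc16a1 the ratio was 0.0499 to 0.0617 in IL10-KO and 0.118 to 0.460 in WT libraries, also with no overlap, but 20.4% of all genes tested stood wholly lower in IL10-KO on this scale. The Slc16a1 separation is therefore common among genes once epithelial content is divided out. For Bsg it was 0.589 to 0.682 in IL10-KO and 0.630 to 1.28 in WT libraries.

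The balance between the related Slc16 carriers needs no scaling between libraries. The ratio of Slc16a3 to Slc16a1 FPKM was 0.389, 0.840 and 0.358 in IL10-KO libraries 1 to 3 and 0.0324, 0.00643 and 0.0866 in WT libraries 1 to 3. Every IL10-KO library was above every WT library, and the lowest ratio, in WT library 2, came with the highest Slc16a1 (314 FPKM). This ratio was chosen after the levels were seen, and no share over other pairs of genes was computed. It takes in the separation of Slc16a3 given above, so it is not a separate result. On the log2 scale the ratio averaged -1.03 ± 0.68 in IL10-KO and -5.25 ± 1.89 in WT (SD, n = 3), a difference of 4.22 with an exact two-sided permutation p of 0.1, the smallest possible.

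**Figure D2:**
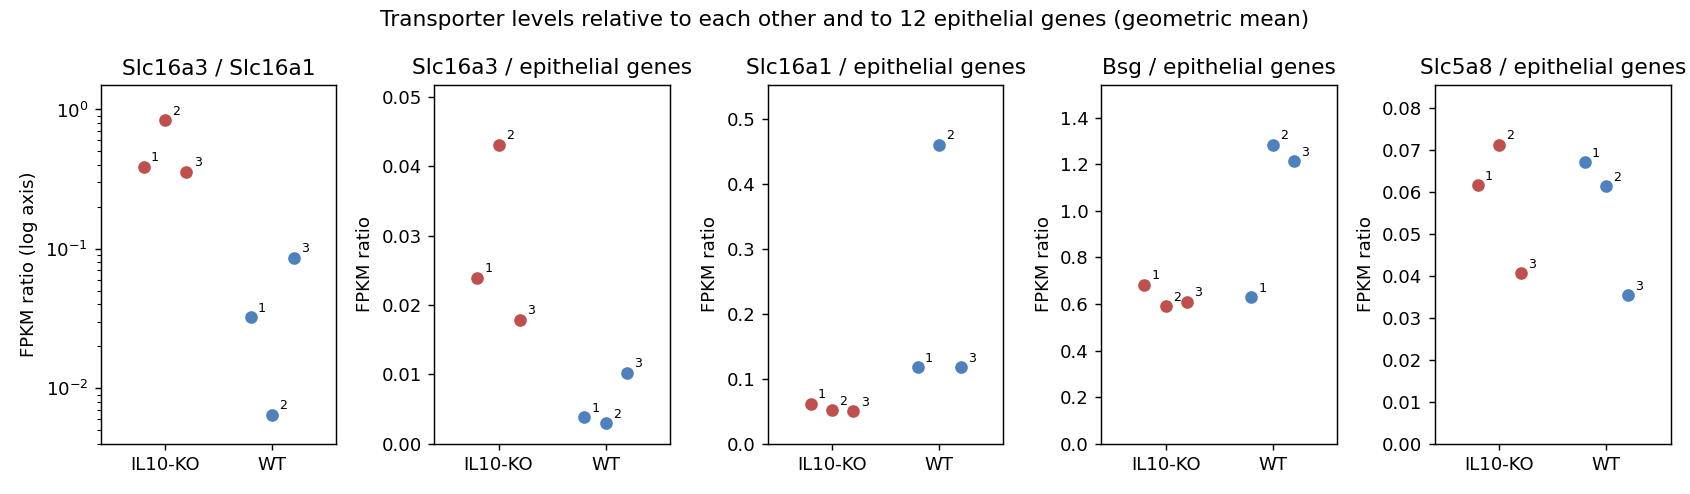
FPKM ratios in IL10-KO and WT libraries (points, numbered by replicate): Slc16a3 over Slc16a1 on a log axis, then each transport gene over the geometric mean of 12 epithelial genes on axes from 0. Slc16a3 over Slc16a1 runs from 0.358 to 0.840 in IL10-KO and from 0.00643 to 0.0866 in WT, and Slc5a8 over epithelial genes overlaps between the groups.

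Hcar2, the niacin and butyrate receptor, was low in all libraries but higher in each IL10-KO library. Hcar2 (ENSMUSG00000045502, GRCm38 chromosome 5, 123863570 to 123865499, minus strand) had values of 3.69, 3.76 and 1.91 FPKM in IL10-KO libraries 1 to 3, against 0.867, 0.549 and 0 FPKM in WT libraries 1 to 3. The groups did not overlap, and WT library 3 had no read, which allows up to 0.1203 FPKM at 3 reads (counting error only). The reads were 90, 114 and 60 in IL10-KO and 27, 14 and 0 in WT libraries. Its log2 fold change was 1.496 (SE 0.34, 95% interval 0.69 to 2.30) with an unadjusted p of 0.00328 and an adjusted p of 0.228 in limma. The fold depended on the pseudocount, at 2.96 with 0.1 and 4.14 with 0.01, and was 3.71 with voom on the recovered reads. Across the alternatives its adjusted p ran from 0.0681 to 0.953. Hcar2 reached the minimum for testing through the IL10-KO libraries, which limits what these p-values show.

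Ffar2, the acetate and propionate receptor, had its lowest value in WT library 2, where Slc16a1 had its highest. Ffar2 (ENSMUSG00000051314, GRCm38 chromosome 7, 30818348 to 30823775, minus strand) had values of 1.79, 1.78 and 2.66 FPKM in IL10-KO libraries 1 to 3, against 1.62, 0.163 and 2.995 FPKM in WT libraries 1 to 3. WT library 2 was far below the rest with 6 reads, against 63 to 121 reads in IL10-KO libraries and 73 and 108 in the other WT libraries. The log2 fold change was 0.41 (SE 0.46, 95% interval -0.68 to 1.49, adjusted p = 0.814 in limma) and -0.09 without WT library 2. Pearson's r of log2(FPKM + 1) between Ffar2 and Slc16a1 over the 6 libraries was -0.98, as a description of libraries that share depth and tissue make-up.

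Ffar3, the receptor with the lowest level in every IL10-KO library, had a mean FPKM over the 6 libraries under the minimum for the test. Ffar3 (ENSMUSG00000019429, GRCm38 chromosome 7, 30854330 to 30856178, minus strand) had values of 0.900, 0.138 and 0.0995 FPKM in IL10-KO libraries 1 to 3, against 0.804, 0.860 and 1.76 FPKM in WT libraries 1 to 3. The highest IL10-KO library overlapped the WT range, while IL10-KO libraries 2 and 3 lay below it with 4 and 3 reads. The difference of mean log2(FPKM + 1) was -0.65. A wider filter, a mean FPKM of at least 0.1, gave it an unadjusted p of 0.0588 and an adjusted p of 0.555 in limma. Of the members, only Slc16a1 overlapped another annotated gene, and those 2 intronic genes, Gm43585 and Gm43581, were at 0.350 FPKM or less in every library.

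**Figure D3:**
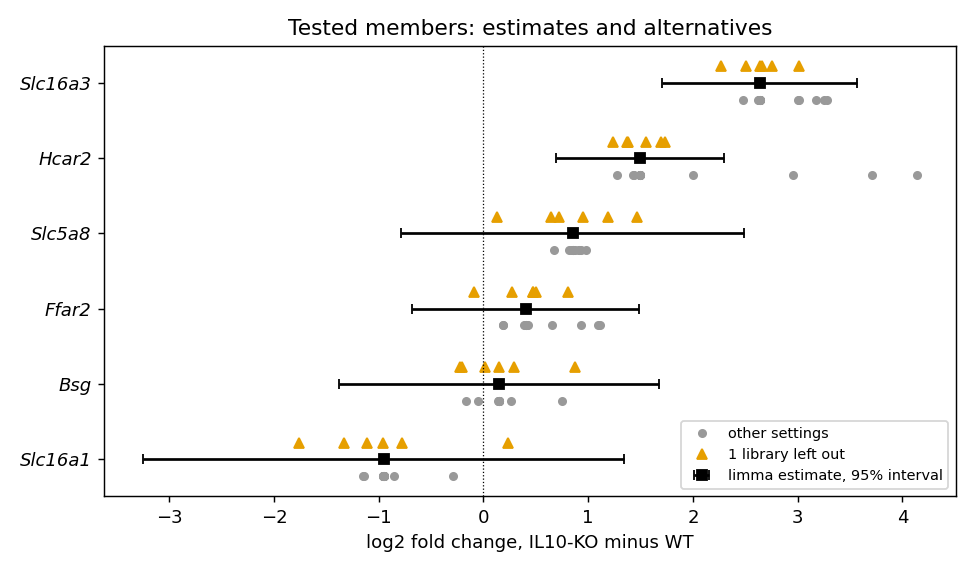
Log2 fold changes, IL10-KO minus WT (horizontal axis), of the 6 tested members: squares with bars give the limma estimate and its 95% interval, triangles the fit with 1 library left out, grey points the other settings. Slc16a3 and Hcar2 lie above 0 with their intervals, Slc5a8 in its estimates only, and estimates of Bsg, Slc16a1 and Ffar2 fall on both sides. Hcar2 passed the minimum through IL10-KO.

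The genes around the members were read from lists on the same fit, with counts and medians and no test of a list. The median log2 fold change of all genes tested was 0.04, and 54.1% were positive. Of 15 other monocarboxylate carriers and their partners, 6 passed the minimum, 2 with higher and 4 with lower values (median -0.16). That median was 0.23 without WT library 2 and -0.46 without WT library 3, the ends of its range with 1 library left out. None was called by limma or voom and 0 had an unadjusted p under 0.05. Slc16a5 (MCT6) was the highest other carrier, at 14.3 ± 4.09 FPKM in IL10-KO and 20.7 ± 23.0 in WT (SD, n = 3). Emb (embigin), a basigin relative that also escorts carriers, was at 2.55 ± 1.17 FPKM in IL10-KO and 1.11 ± 0.51 in WT (SD, n = 3). Its log2 fold change was 0.72, and limma gave an adjusted p of 0.528. Neuroplastin (Nptn), another basigin relative, was at 16.5 ± 2.16 FPKM in IL10-KO and 21.8 ± 9.42 in WT (SD, n = 3). The other carriers over the minimum were Slc16a13, Slc16a6 and Slc16a9, with log2 fold changes of -0.81, 0.55 and -0.74. The sodium-coupled relative Slc5a12 had 0 reads in all 6 libraries.

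Among 7 related receptors, Ffar4 (GPR120, for long-chain fatty acids) and Gpr35 passed the minimum. Ffar4 was at 10.7 ± 2.02 FPKM in IL10-KO and 8.08 ± 4.37 in WT, and Gpr35 at 5.28 ± 1.12 FPKM in IL10-KO and 3.76 ± 0.911 in WT (SD, n = 3). Their log2 fold changes were 0.45 and 0.40, with adjusted p of 0.725 and 0.629 in limma. The 7 G proteins and arrestins through which such receptors signal were all measured, 4 higher and 3 lower (median 0.05, but -0.24 without WT library 1 and 0.55 without WT library 2, the ends of the range with 1 library left out), and none was called by limma or voom. The log2 fold change of Gnai1, an inhibitory G protein, was -1.38 (adjusted p = 0.335) and that of Gnaq, through which Ffar2 can raise calcium, 0.60 (adjusted p = 0.459). The groups overlapped for neither, with Gnai1 wholly lower and Gnaq wholly higher in IL10-KO. Over all genes tested 8.84% stood wholly higher, and the share wholly lower was not computed. For Arrb1, an arrestin, the log2 fold change was -0.44 (adjusted p = 0.584 in limma).

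Enzymes that activate and oxidise short-chain fatty acids gave no call and followed WT library 2. Of 26 listed, 22 passed the minimum, 6 with higher and 16 with lower values (median -0.22), 0 called by limma or voom and 0 with an unadjusted p under 0.05. With 1 library left out the median ran from -0.47 without WT library 3 to 0.26 without WT library 2. The highest library was WT library 2 for 17 of the 22, against 29.9% of all genes tested. Acads, the short-chain acyl-CoA dehydrogenase that acts on butyryl-CoA, was at 51.5, 51.9 and 41.4 FPKM in IL10-KO libraries 1 to 3, against 26.5, 184 and 23.9 FPKM in WT libraries 1 to 3. Acads was high in WT library 2 alone, and it was chosen after its values were seen. By the smallest p the list was led by Acss1, Acss2 and Etfb, with log2 fold changes of -0.77, -0.41 and -0.69 and adjusted p of 0.611 to 0.729 in limma. Surface colonocyte genes shared the pattern, with 9 of 12 highest in WT library 2. Their summed level was 3198 to 12190 FPKM in IL10-KO and 2594 to 46180 FPKM in WT libraries.

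Of the surface colonocyte genes 7 had higher and 5 lower values (median 0.32), with 0 called by limma or voom. Leaving out WT libraries 1, 2 and 3 in turn gave medians of 0.13, 0.98 and -0.27, and leaving out IL10-KO libraries 1 and 3 gave -0.11 and 0.56. The apical sodium-proton exchanger Slc9a3 was at 110 ± 31.7 FPKM in IL10-KO and 17.2 ± 6.67 in WT (SD, n = 3). Its log2 fold change was 2.64 with an SE of 0.41, and limma gave an adjusted p of 0.0752. Scnn1a, a subunit of the epithelial sodium channel, and the water channel Aqp8 had log2 fold changes of 1.27 and -1.78, with an adjusted p of 0.432 for Scnn1a and 0.599 for Aqp8. All 12 epithelial identity genes had higher values (median 0.83, but 0.31 without WT library 3 and 1.41 without WT library 2), with 0 called by limma or voom. They were led by Krt18, Elf3 and Krt8, with log2 fold changes of 0.92, 1.06 and 1.22.

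Hypoxia-inducible and glycolytic genes, a list to which Slc16a3 is related in function, had higher values in 18 of 19 (median 1.24). None was called by limma or by voom. At an unadjusted p under 0.05, 11 were higher, against 6.14% of all genes tested, and IL10-KO lay wholly above WT for 10, against 8.84%. Both counts include Pfkfb3, which averaged 0.872 FPKM in WT and 8.02 FPKM in IL10-KO and so passed the minimum through the IL10-KO libraries. Its place in them is not independent of the filter. Egln3, an oxygen-sensing hydroxylase, was at 62.4 ± 29.9 FPKM in IL10-KO and 8.74 ± 1.92 in WT (SD, n = 3). The log2 fold change of Egln3 was 2.62 with an SE of 0.39, and its adjusted p in limma was 0.0752. Pfkfb3, a regulator of glycolysis, and Ankrd37 had log2 fold changes of 2.17 and 1.26, with an adjusted p of 0.115 for Pfkfb3 and 0.192 for Ankrd37. Ldha, which makes the lactate that Slc16a3 exports, had one of 0.76 (adjusted p = 0.729), with groups that overlapped, and was chosen after its value was seen. The list mean was 5.17 to 6.04 in IL10-KO and 3.98 to 5.18 in WT libraries on the log2(FPKM + 1) scale.

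Markers of other cell types known to carry these genes differed between the libraries too. Of 12 neutrophil genes 9 passed the minimum, but all of these except Ly6g averaged under 1 FPKM in WT and so passed through the IL10-KO libraries, and their direction is not counted here. Camp, which did not pass, averaged 0.109 FPKM in IL10-KO and 0.163 FPKM in WT. For the same reason, the adjusted p of these genes is given as a value only. It was 0.00226 for S100a8 and 0.000486 for S100a9, the subunits of calprotectin, in limma, and voom called 1 gene of the list. S100a8 averaged 702 ± 437 FPKM in IL10-KO and 0.104 ± 0.112 FPKM in WT (SD, n = 3). S100a9 averaged 356 ± 121 FPKM in IL10-KO (SD, n = 3) and had no read in WT libraries. Retnlg was at 27.8 ± 18.6 FPKM in IL10-KO (adjusted p = 0.0647) and had none in WT either. Summed over the 12 genes the level was 958 to 1895 FPKM in IL10-KO and 2.08 to 126 FPKM in WT libraries. Ly6g, a Ly6 family gene with close relatives, took 124, 0.322 and 16.0 FPKM of the sum in WT libraries 1 to 3, and without it the sum was 570 to 1558 FPKM in IL10-KO and 1.65 to 1.98 FPKM in WT libraries. S100a9, Cxcr2, Retnlg, Mmp8 and Ngp were at 0 reads in all WT libraries. The part of neutrophils in the Slc16a3 and Hcar2 values was not tested. Leaving out Ly6g was chosen after its values were seen.

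Macrophage and monocyte genes had a median of 0.37, which ran from -0.0043 without WT library 2 to 0.69 without WT library 1, with 8 of 11 higher, 3 lower and 0 called by limma or voom. Their sum was 279 to 595 FPKM in IL10-KO and 163 to 463 FPKM in WT libraries. By the smallest p they were led by Itgam, Lyz2 and Csf1r, with log2 fold changes of 1.15, 1.11 and 0.78. The 3 lower genes were Mrc1, Adgre1 and C1qc, with log2 fold changes of -0.58, -0.34 and -0.01. Of 9 tested enteroendocrine L cell genes, where Ffar2 and Ffar3 are known, 8 had lower values and 1 higher (median -0.70), with 0 called by limma or voom and 4 lower at an unadjusted p under 0.05, against 4.03% of all genes tested. By the smallest p, Chgb, Scg2 and Chga led, with log2 fold changes of -0.70, -1.93 and -1.13. The hormone genes Pyy, Gcg, Insl5 and Nts had log2 fold changes of 0.22, -0.12, -0.69 and -0.997. Their groups overlapped, with adjusted p of 0.838 to 0.973 in limma, so a change in them was not shown. The L cell list summed to 56.9 to 153 FPKM in IL10-KO and 90.0 to 471 FPKM in WT libraries. Enteric neuron genes had lower values in 8 of 9 (median -1.68, and -1.004 without WT library 3), 7 of them at an unadjusted p under 0.05, against the same 4.03%, and 0 called by limma or voom, led by Prph, Vip and Elavl4. They summed to 13.4 to 53.6 FPKM in IL10-KO and 48.3 to 339 FPKM in WT libraries, and both Ffar3 and the neuron genes were highest in WT library 3. All 10 smooth muscle genes had lower values (median -2.18, but -1.28 without WT library 3 and -1.38 without IL10-KO library 2), with 0 called by limma or voom, led by Synpo2, Acta2 and Cnn1. Of 4 tested adipocyte genes 3 were lower and 1 higher (median -0.64, but -0.30 without WT library 2, -0.41 without IL10-KO library 3 and -0.41 with no filter), led by Fabp4, Cfd and Cidec, with a sum of 30.0 to 51.6 FPKM in IL10-KO and 31.1 to 130 FPKM in WT libraries. What these cells contribute to the members' values was not tested.

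**Figure D4:**
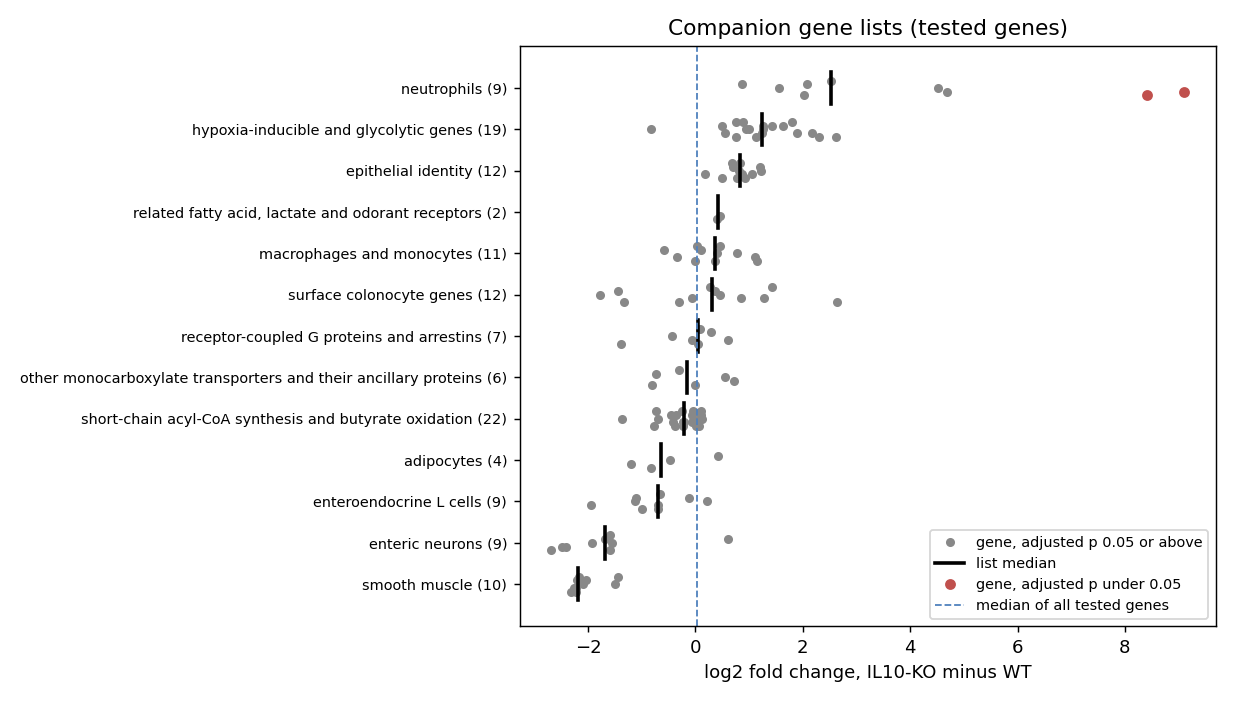
Log2 fold changes, IL10-KO minus WT (horizontal axis), of the tested genes of 13 lists, with the number tested in brackets, black bars for list medians and a dashed line for the median of all tested genes. Neutrophil genes, most of which passed the minimum through IL10-KO, and hypoxia-inducible genes lie to the right, enteric neuron and smooth muscle genes to the left, and butyrate oxidation genes near 0.

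The genes whose log2(FPKM + 1) ran most like each member over the 6 libraries are given by Pearson's r, as a description over few points that share depth and tissue make-up. For Slc16a3 they were Sh3bp2, Pfkp and Ddah1, with r of 0.99 each. Pfkp, a phosphofructokinase of glycolysis, was at 21.2, 26.7 and 12.7 FPKM in IL10-KO libraries 1 to 3, against 6.20, 7.03 and 6.50 FPKM in WT libraries 1 to 3. For Hcar2 they were Sbno2, Xdh and Lamtor3 (0.99 each), and Hcar2 and Slc16a3 had r of 0.92 with each other. For Slc5a8 they were Adam10, Fam83e and Nsdhl (0.99 or more), which shared its low value in WT library 3. For Slc16a1 they were Gstm4, Gpr108 and Zfp768 (0.99 or more), for Bsg Fth1, Tmem134 and Iba57 (0.99 or more), each with its highest value in WT library 2. For Ffar2 they were Kdelr3, Fkbp11 and Cd44 (0.99 or more), each lowest in WT library 2.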

How the data were processed

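Colon RNA of 6 libraries was measured by sequencing. The authors deposited 1 table of FPKM per gene and library, with gene lengths and coordinates per the file headers. Bowtie 0.12.2 and the builds hg38 and mm8 are named, without roles, in the submitters' processing notes. The counting tool, strand setting and handling of reads with several matches were not given in the sources used here. All 7 members had the same coordinates as in GENCODE M21 (GRCm38). For 100% of values above 0, FPKM times length fell on whole steps (tolerance 0.01), and the steps gave the reads. The library size implied by FPKM was 0.836 to 1.23 times the reads recovered, so the authors' denominators differ from these totals. Floors cover counting error only. Titles gave the groups and numbers, and no library repeated another (chi-square per gene of 60.7 or more for every pair).

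Tests covered genes averaging 1 FPKM or more, on log2(FPKM + 1) with limma 3.58.1 (eBayes with trend, no replicate block) in R 4.3.3, with Benjamini-Hochberg adjustment and a threshold of 0.05. The log2 fold change understates the change of low genes. The fit was tested on simulated data. Summaries used pandas 2.3.3 with numpy 2.4.6 in Python 3.11.15, and plots matplotlib 3.10.9. Alternatives were other pseudocounts, filters, scalings (TMM-type factors, quantile, TPM, non-mitochondrial total), eBayes settings, library weights, a replicate block, voom on recovered reads and leaving out each library. All members were named, with the 3 genes of smallest p per list, carriers and receptors over the minimum, and the 3 genes most like each member. Members and lists were chosen with earlier results of these data known. Aldoa had a second, low row, which was not used.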

Additional observations from a re-analysis of the deposited data

How the results depend on the processing

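Each of Slc5a8, Slc16a3 and Hcar2 kept its direction in every alternative run. Slc16a3 was called with TPM (log2 fold change 3.01, adjusted p = 0.026 in limma) and with a weight per library (3.001, adjusted p = 0.0219), so 1 member was called under each of these and 0 under every other setting. Those weights were 2.76, 0.198 and 0.465 for WT libraries 1 to 3, so the WT side rested mostly on library 1. Leaving out each library gave ranges of 2.26 to 3.01 for Slc16a3, 1.24 to 1.73 for Hcar2, 0.13 to 1.47 for Slc5a8, -1.76 to 0.23 for Slc16a1, -0.23 to 0.88 for Bsg, -0.09 to 0.80 for Ffar2 and -0.91 to -0.46 for Ffar3, and 0 members called each time. Slc16a1 was 0.23 and Ffar2 -0.086 without WT library 2. Bsg was -0.17 with quantile normalization, -0.051 with the non-mitochondrial total, -0.23 without WT library 1 and -0.20 without WT library 3, and the cause was not tested. Ffar3 was -1.70 with a pseudocount of 0.1 and -2.14 with 0.01, where less is added to low values. TPM moved the median of all genes to 0.15 and the non-mitochondrial total to -0.13, against 0.04 as deposited.

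Of all genes, 23 were called in the fit as reported, 9 with a pseudocount of 0.01, 4 with no filter, 46 with TPM, 331 with a weight per library, 2 with voom, and 4 to 29 with 1 library left out (4 without IL10-KO library 2, 7 without IL10-KO library 3, 12 without WT library 1, 5 without WT library 3). With a replicate block the count was 7, and no member was called. Same-numbered libraries had correlations of their deviations of -0.149, 0.180 and 0.396. IL10-KO libraries 2 and 3 correlated best with the WT library of their own number, while IL10-KO library 1 correlated best with WT library 2 (0.177). The labels give no pairs, so the numbers are not taken as pairs, but these values do not settle it. Depth limits Ffar3 and Hcar2, with 3 to 114 reads per library above 0.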
